A study of Mus musculus with 31 samples.

Results

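The comparison asked whether the differences between melanoma cells lacking the glucocorticoid receptor (GR KO) and their parental line are the same in tumors as in culture. It takes the log2 ratio of GR KO to parental control-treated tumors and subtracts the log2 ratio of GR KO to parental DMSO-treated cells. Membership followed the genotype and treatment in the sample labels and gave 16 of the 31 libraries of the series: 5 parental tumors, 5 GR KO tumors, 3 parental cultures and 3 GR KO cultures. The study concerns topical glucocorticoids (GC) in mouse melanoma, and the libraries treated with GC enter only an alternative fit of all 31 libraries.

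Both genotypes derive from 20967, a melanoma line from C57BL/6 mice of the genotype Nras+LSL-G12D;Tyr::CreERT2+/o, in which the CreERT2 recombinase under the tyrosinase promoter turns on an oncogenic *Nras* allele in melanocytes. Parental cells were unedited. GR KO cells came from CRISPR-Cas9 editing of *Nr3c1* with Cas9 protein and guide RNA, were grown as single colonies, and were chosen by loss of the GR protein on a western blot. The labels do not say whether tumors and cultures come from the same clone or from how many clones. The library names of the 3 GR KO cultures carry the mark 3-22, which the labels do not explain and the tumor names lack, so loss of GR and other differences of the edited clones cannot be told apart. Tumors of both genotypes grew in the skin of wild-type C57BL/6 mice, whose own cells keep GR, and received cetraben cream 3 times per week as the control for topical GC. Cultures of both genotypes received DMSO, the solvent, for 48 hours in medium with 10% serum. The labels give no age, sex or collection day for the mice and do not say whether the cultures of a group were grown separately, so every p-value measures the spread between these libraries and nothing wider.

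GR is a nuclear receptor that binds glucocorticoids such as corticosterone, moves to the nucleus and there raises or lowers transcription of its target genes. *Fkbp5*, *Tsc22d3* and the metallothioneins are among the genes it is known to raise, and many inflammatory genes are among those it restrains. A tumor library mixes RNA of melanoma cells with RNA of host leukocytes, fibroblasts, vessels and skin, whereas a culture holds the melanoma line alone.

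Each library counts tags from the 3′ ends of mRNA. Totals ran from 15528066 to 26386770 counts in tumors and from 15121571 to 20120020 in cultures. Levels are given in CPM, counts scaled to the library total after TMM normalization. The test covered the 10955 of 39179 genes with at least 1 CPM in 3 or more of the 10 tumors and in 3 or more of the 6 cultures. A further 2999 genes met this in tumors alone and 308 in cultures alone, and they were not tested. Effects are log2 ratios of GR KO to parental with their standard error (SE), from 1 edgeR quasi-likelihood fit of the 4 groups. A gene is called when its Benjamini-Hochberg adjusted p is under 0.05 and its fold is at least 1.5, and each adjusted p comes from that test. The detection floor was set at 3 counts per library, which lay between 0.1025 and 0.2182 CPM. Intervals and floors cover counting error only, since PCR reads without molecular identifiers are not independent molecules.

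Some libraries stood apart before any test. *Gm26924*, annotated as a noncoding gene that overlaps ribosomal RNA repeat sequence, took 5.55, 1.76, 1.24, 1.7 and 0.439% of counts in parental tumors 1 to 5 and 11.55, 8.97, 6.57, 0.248 and 16.3% in GR KO tumors 1 to 5. GR KO tumors 1 and 5 were above 10%, while GR KO tumor 4 was below all parental tumors. In cells the share ran from 1.65% to 2.98%, higher in the 3 GR KO cultures than in the 3 parental cultures. GR KO tumors had 13442, 14887, 15150, 16980 and 14335 genes with a count, against 15578, 16801, 16136, 16800 and 15938 in parental tumors. The mitochondrial share of counts was 0.587, 0.6285, 0.755, 1.15 and 0.976% in GR KO tumors, each below all parental tumors at 1.46, 2.475, 1.25, 1.35 and 1.46%, and 0.78, 0.719 and 0.7405% in parental against 0.784, 0.917 and 0.885% in GR KO cells, higher in all 3 GR KO cultures. Across log2 CPM of the genes tested, which are not independent replicates, GR KO tumor 4 had a mean correlation of 0.950 with the parental tumors and of 0.896 with the other GR KO tumors. GR KO tumor 3 was also closer to the parental tumors, at 0.928 against 0.914, and the other 3 were closer to their own group. GR KO tumor 1 lay farthest out on the first principal component of the tumors, which carried 40.2% of their variance. Without GR KO tumors 1 and 5, an alternative chosen after the data were seen, the genes called in tumors dropped from 938 to 122, of which 116 were among the 938. Without GR KO tumor 4 the count was 2547, and without GR KO tumor 1 it was 389. Without parental tumors 3 and 4 it was 507 and 466. The number called in vivo only, 269 with all libraries, was 1495 without GR KO tumor 4, 106 without GR KO tumor 2, and 70 and 73 without parental culture 2 and GR KO culture 2. Both numbers thus depend on which tumors are included, and the second also on the cultures. The part of the mitochondrial share, and of whatever raises the *Gm26924* share, in the results was not tested.

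Markers checked the labels and showed what else the tumors held. Of 15 melanocyte lineage genes, 2 passed the filter, and *Sox10*, *Tyr*, *Tyrp1*, *Dct*, *Mlana*, *Slc45a2* and *Oca2* had no count in any culture, so the pigment program that defines melanocytes was not seen in these cells. Their sum was 81.8, 79.97, 62.4, 64.7 and 44.1 CPM in parental tumors and 57.8, 59.8, 53.3, 59.9 and 48.9 CPM in GR KO tumors. In cells that sum was 19.7, 19.3 and 22 CPM in parental cells and 13.2, 12.55 and 15.6 CPM in GR KO cells, with *Mitf* the most abundant member over all 16 libraries and *Gpnmb* in cells. *Mitf*, the central transcription factor of the lineage, was at 8.62, 9.94 and 11.55 CPM in parental cells and 4.705, 2.97 and 4.04 CPM in GR KO cells. It fell in GR KO cells, by a log2 ratio of -1.36 (SE 0.32, edgeR adjusted p = 0.0117), and its difference between settings missed the threshold at 1.09 (SE 0.39, edgeR adjusted p = 0.0928). *Gpnmb*, the other member tested, had a log2 ratio of 0.15 (SE 0.59, edgeR adjusted p = 0.958) in cells.

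The summed leukocyte markers were higher in GR KO tumors, and the sums of some other host lists were apart only with their lead gene. The 7 leukocyte genes, led by *Laptm5*, summed to 1389, 1163, 1067, 1358 and 994 CPM in parental tumors and 3073, 2258, 2000, 1882 and 1831 CPM in GR KO tumors. All 5 GR KO tumors were above all 5 parental tumors, also without *Laptm5*, while no culture exceeded 3.11 CPM and *Cd52* had no count in any culture. *Cytip*, the 1 member tested, was not called in tumors, at a log2 ratio of 0.47. The 8 macrophage genes, led by *C1qa*, summed to 5322, 5298, 4062, 4722 and 3622 CPM in parental tumors and 9194, 7944, 5680, 6687 and 6606 CPM in GR KO tumors. These groups did not overlap, but without *C1qa* the sums overlapped, at 2021 to 2879 CPM in parental and 2193 to 2868 CPM in GR KO tumors. *Cd68*, the 1 member tested, had a tumor log2 ratio of 0.12 (SE 0.27, edgeR adjusted p = 0.797), and the cultures held 1.34 to 3.94 CPM with *Emr1* and *Mrc1* at 0. The 7 endothelial genes, led by *Kdr*, summed to 71, 61.3, 48.4, 71.8 and 47.75 CPM in parental tumors and 104, 104, 116.5, 108 and 108 CPM in GR KO tumors, without overlap except when *Kdr* is taken out, and *Tek* and *Cldn5* were at 0 in cultures. T cell genes, 10 in number and led by *Cd2*, summed to 220.2, 178, 131, 211 and 97.7 CPM in parental tumors and 272, 237.5, 188, 368 and 181 CPM in GR KO tumors, and these ranges overlapped. *Cd3d*, *Cd3e*, *Cd3g*, *Cd247*, *Cd8a*, *Cd4* and *Cd2* had no count in any culture. NK cell genes, 7 in number and led by *Gzma*, summed to 9.912 to 20.14 CPM in parental and 20.3 to 55.09 CPM in GR KO tumors. These ranges did not overlap, but without *Gzma* they did. Sums of the 7 dendritic cell genes overlapped. Their lead gene *Itgax* did not, at 38.01 to 85.78 CPM in parental and 95.27 to 176.9 CPM in GR KO tumors. Without *Itgax* the sums were 34.28 to 46.57 CPM in parental tumors and 75.2, 31.3, 31.8, 66.5 and 20.53 CPM in GR KO tumors. GR KO tumors 1 and 4 were then above all parental tumors, and GR KO tumors 2, 3 and 5 below all of them.

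Skin and stroma differed less evenly. Keratinocyte genes, 7 in number and led by *Krt14*, summed to 1534, 1473, 1764, 1473 and 3403 CPM in parental tumors and 4146, 4731, 3656, 2199 and 2718 CPM in GR KO tumors, with parental tumor 5 inside the GR KO range. *Krt10*, the 1 member tested, went the other way in 4 of the 5 GR KO tumors, with a tumor log2 ratio of -1.29 (SE 0.53, edgeR adjusted p = 0.128), and *Krt1* and *Trp63* were at 0 in cultures. Neutrophil genes, 6 in number and led by *S100a8*, summed to 22.4, 65.9, 230.5, 31.65 and 1171 CPM in parental tumors and 426, 778, 259.5, 176 and 1022 CPM in GR KO tumors. Parental tumor 5 was above all GR KO tumors and parental tumor 3 above GR KO tumor 4, so the groups overlapped, and *S100a8*, *S100a9*, *Ly6g* and *Retnlg* were at 0 in cultures. Fibroblast genes, 7 in number and led by *Col1a1*, summed to 2487, 2691, 2716, 2733 and 2777 CPM in parental tumors and 2144, 2288, 2233, 3199 and 2601 CPM in GR KO tumors, with overlap. In cells the fibroblast sum was 48.6, 27.9 and 30.2 CPM in parental cells and 1.89, 2.88 and 1.17 CPM in GR KO cells, carried by *Col1a1*, with *Dpt* and *Pi16* at 0. More cells of a type and more RNA per cell cannot be told apart in bulk tumors, and the part of these host cells in the genotype effects was not tested.

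**Figure D1:**
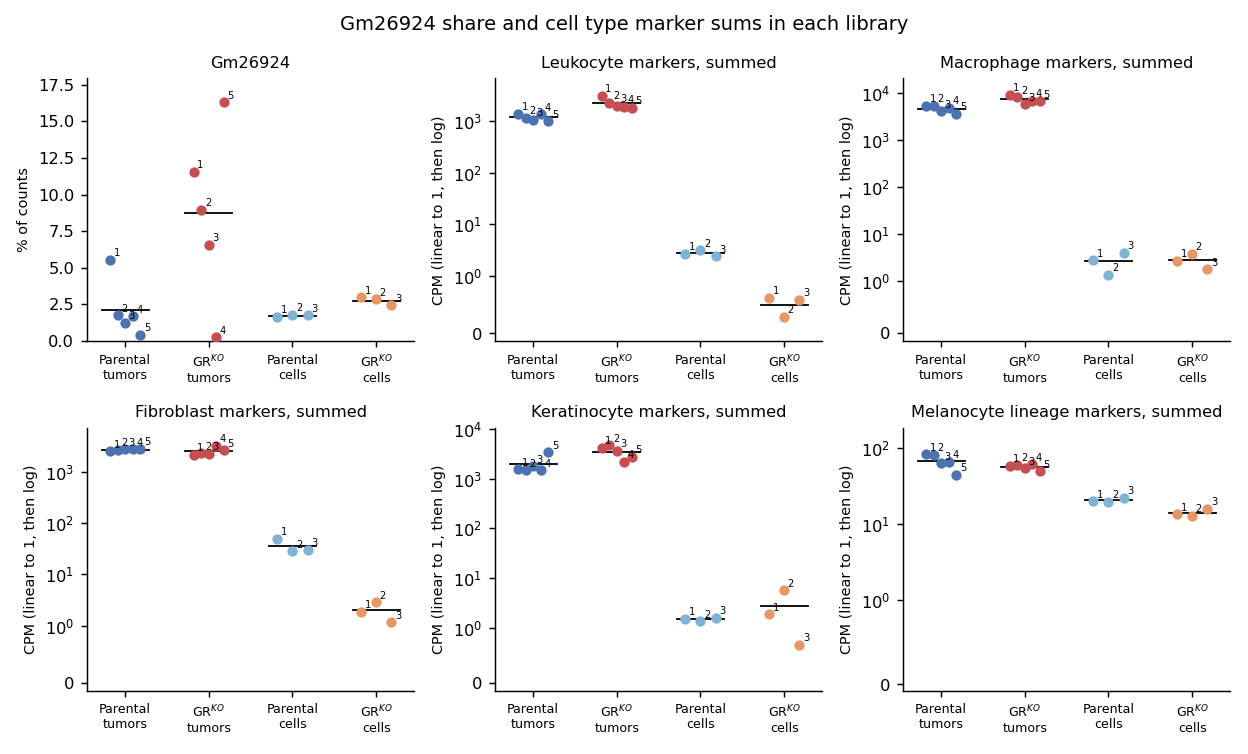
Share of counts in *Gm26924* (percent) and summed CPM of 5 marker lists in each of the 16 libraries, where points are libraries numbered by replicate and lines are group means; the marker axes are linear up to 1 CPM and logarithmic above. GR KO tumors 1 and 5 reach 11.5% and 16.3% of counts in *Gm26924*, and leukocyte sums of GR KO tumors, 1831 to 3073 CPM, lie above the parental 994 to 1389 CPM.

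*Nr3c1*, the gene that was edited, was read first. It was at 62.7, 55.75, 42.4, 53.5 and 47.9 CPM in parental tumors and 20.5, 27, 30.7, 31.6 and 23.5 CPM in GR KO tumors. In cells, *Nr3c1* was at 32.8, 29.7 and 35.2 CPM in parental cells and 24.45, 20.8 and 16.2 CPM in GR KO cells. Every GR KO library was below every parental library of its setting, yet transcript remained in all of them. The log2 ratio was -0.96 (SE 0.18, edgeR adjusted p = 0.00729) in tumors and -0.67 (SE 0.23, edgeR adjusted p = 0.15) in cells, and the difference was -0.29 (SE 0.29, edgeR adjusted p = 0.542). Exact two-sided permutation tests of log2(CPM + 1) gave p = 0.00794 in tumors, the smallest that 5 against 5 can give, and p = 0.1 in cells, the smallest that 3 against 3 can give. The exact permutation test of the difference, with genotype permuted within tumors and within cells, gave p = 0.562. Tags from the 3′ end lie outside the edited stretch of the gene and do not check the edit.

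Genotype left different marks in the 2 settings. In tumors 938 genes were called, 8.56% of those tested, with 700 higher in GR KO (6.39%) and 238 lower (2.17%). In cells 455 were called, 4.15%, with 56 higher (0.511%) and 399 lower (3.64%). The difference between the settings was called for 765 genes, 6.98%, with 663 more positive in tumors (6.05%) and 102 more negative (0.931%). Tumor calls leaned to higher genes, but little so without GR KO tumor 4, where 1385 were called higher and 1162 lower (54.4% higher), and for the difference 1445 were more positive and 926 more negative. Without GR KO tumors 1 and 5 the tumor calls were 90 higher and 32 lower. Without parental culture 2, calls in cells fell to 187 and differences to 214. In cells the called genes were mostly lower in GR KO, less so with limma voom (383 higher and 779 lower) and with cultures fitted alone (223 and 624). Parental and GR KO tumors did not overlap for 480 genes (4.38%), and parental and GR KO cells did not overlap for 3665 (33.5%). For independent libraries without a genotype difference, the expected shares would be 0.00794 with 5 against 5 tumors and 0.1 with 3 against 3 cultures.

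Some genes were called in both settings. The tumor and culture contrasts have no library in common, and 78 genes were called in both, 8.32% of the tumor list, where 4.15% of all genes tested were called in cells, and 17.1% of the culture list, where 8.56% of all were called in tumors. Of these, 32 had the same direction and 46 the opposite. Genes called higher in cells had the same sign in tumors in 43 of 56 cases (76.8%), with a median tumor effect of 0.27. Genes called lower in cells had the same sign in tumors in 175 of 399 cases (43.9%), with a median tumor effect of 0.08. Across all 10955 genes the effects of the 2 settings correlated at Pearson r −0.123 and Spearman rho −0.301, and across the 455 genes called in cells at 0.204 and 0.131. These describe genes, which are not independent replicates. Tumors varied more (biological coefficient of variation 40.9%) than cultures (22.9%). Fitted alone, tumors gave 217 genes and cells 847, and limma voom with weights for each group gave 316, 1162 and, for the difference, 1370.

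**Figure D2:**
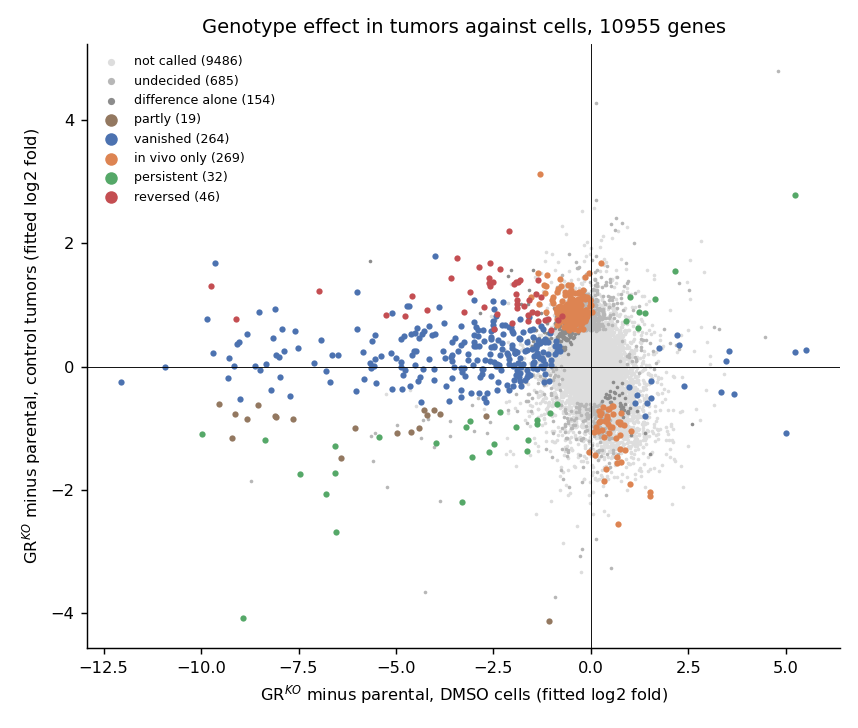
Genotype effect in tumors (log2 ratio, vertical) against the effect in cells (log2 ratio, horizontal), 1 point per gene tested and colored by class. The 32 persistent genes lie in the quadrants of equal sign, the 46 reversed genes in the quadrant of lower in cells and higher in tumors, the 264 vanished genes at a tumor effect under 1.5-fold or of opposite sign and the 269 in vivo only genes at a cell effect under 1.5-fold or of opposite sign.

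Persistent genes are those called in both settings with the same sign. There were 32 (0.292% of genes tested), 8 higher and 24 lower in GR KO. The difference was called for 13 of the 32, all 13 lower in GR KO and with the smaller effect in tumors. The 24 lower genes had median levels of 44.3 CPM in parental and 17.6 CPM in GR KO tumors, and of 18.2 and 1.03 CPM in cells. The groups did not overlap for 21 of the 32 genes in tumors (4.38% of all genes) and for all 32 in cells (33.5% of all genes). The class held 13 genes without GR KO tumors 1 and 5, and 15 with at least 1 CPM in all 16 libraries. In 8 of the 24 lower genes all GR KO cultures were under 1 CPM. These passed the filter through the parental cultures alone and so had to differ in cells.

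Among persistent genes higher in GR KO, *Arhgap9*, which switches off small GTPases and is found mainly in blood cells, was at 30.7, 29.3, 26.8, 24.1 and 25.4 CPM in parental tumors and 49.5, 69.2, 61.5, 41.7 and 69.8 CPM in GR KO tumors. In cells, *Arhgap9* was at 1.61, 1.71 and 1.57 CPM in parental cells and 5.88, 3.82 and 5.74 CPM in GR KO cells. Neither setting overlapped. *Arhgap9* had log2 ratios of 1.11 (SE 0.18, edgeR adjusted p = 0.0048) in tumors and 1.66 (SE 0.26, edgeR adjusted p = 0.000361) in cells, and the difference was -0.55 (SE 0.32, edgeR adjusted p = 0.278). *Ddah1* breaks down asymmetric dimethylarginine, an inhibitor of nitric oxide synthases. Its levels were 50.65, 43.8, 35.8, 32.2 and 47.3 CPM in parental tumors and 118, 119.7, 94.65, 53.4 and 72.2 CPM in GR KO tumors. In cells, *Ddah1* was at 189.7, 219.9 and 178 CPM in parental cells and 415.5, 339 and 432 CPM in GR KO cells, far above the tumors in both genotypes. *Ddah1* had log2 ratios of 1.13 (SE 0.21, edgeR adjusted p = 0.00643) in tumors and 1.01 (SE 0.26, edgeR adjusted p = 0.0288) in cells, and the difference was 0.12 (SE 0.33, edgeR adjusted p = 0.85).

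*Itga7*, an integrin chain that binds laminin, was at 13, 9.98, 15.6, 12.9 and 11.7 CPM in parental tumors and 16.4, 19.6, 22.9, 36.5 and 18.25 CPM in GR KO tumors. In cells, *Itga7* was at 17.4, 23.3 and 21.1 CPM in parental cells and 57.1, 53.1 and 52.7 CPM in GR KO cells. GR KO tumor 4 was the highest tumor and GR KO tumor 1 only just above the parental range. *Itga7* had log2 ratios of 0.86 (SE 0.22, edgeR adjusted p = 0.0208) in tumors and 1.40 (SE 0.28, edgeR adjusted p = 0.00386) in cells, and the difference was -0.53 (SE 0.35, edgeR adjusted p = 0.343). *Eya1*, a transcriptional coactivator and phosphatase of organ development, was at 1.07, 2.34, 2.33, 1.77 and 1.95 CPM in parental tumors and 45.8, 5.97, 6.14, 4.83 and 3.26 CPM in GR KO tumors. In cells, *Eya1* was at 0, 0.305 and 0.116 CPM in parental cells and 5.98, 5.05 and 5.74 CPM in GR KO cells. GR KO tumor 1 stood far above the other tumors. In cells *Eya1* passed the filter through the GR KO cultures alone and so had to differ. *Eya1* had log2 ratios of 2.79 (SE 0.65, edgeR adjusted p = 0.0149) in tumors and 5.24 (SE 1.05, edgeR adjusted p = 0.00339) in cells, and the difference was -2.44 (SE 1.18, edgeR adjusted p = 0.199), and without GR KO tumors 1 and 5 its tumor effect was 1.56 with an adjusted p of 0.086.

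Of persistent genes lower in GR KO, 4 were named. *Mgp*, which encodes matrix Gla protein, an inhibitor of calcification, was at 1485, 1477, 2979, 1727 and 2039 CPM in parental tumors and 377, 167, 320.2, 342.5 and 291 CPM in GR KO tumors. In cells, *Mgp* was at 203, 101 and 197 CPM in parental cells and 1.48, 2.36 and 1.54 CPM in GR KO cells. It was lower in every GR KO library of either setting, and 4 of the 5 GR KO tumors were still above all 3 parental cultures. *Mgp* had log2 ratios of -2.69 (SE 0.26, edgeR adjusted p = 2.01e-05) in tumors and -6.53 (SE 0.42, edgeR adjusted p = 3.47e-09) in cells, and the difference was 3.84 (SE 0.44, edgeR adjusted p = 9.18e-06). *Dio2*, the deiodinase that activates thyroid hormone, was at 174.5, 184, 226, 193 and 137 CPM in parental tumors and 39.1, 28.15, 19.4, 59.95 and 50.8 CPM in GR KO tumors. In cells, *Dio2* was at 12.3, 6.89 and 9.57 CPM in parental cells and 1.07, 1.085 and 0.744 CPM in GR KO cells. The groups were apart in both settings and the difference was not called. *Dio2* had log2 ratios of -2.20 (SE 0.26, edgeR adjusted p = 0.000199) in tumors and -3.29 (SE 0.39, edgeR adjusted p = 9.94e-06) in cells, and the difference was 1.10 (SE 0.46, edgeR adjusted p = 0.141).

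*Col11a1*, a chain of fibrillar collagen, was at 8.315, 7.54, 7.67, 8.38 and 5.605 CPM in parental tumors and 0, 1.66, 0.534, 0 and 0 CPM in GR KO tumors. In cells, *Col11a1* was at 16.5, 24.1 and 17.6 CPM in parental cells and 0, 0.0944 and 0 CPM in GR KO cells. It had no count in GR KO tumors 1, 4 and 5, and parental cells expressed it above parental tumors, unlike *Mgp*, *Dio2* and *Cdh11*. GR KO cells held 2 counts of *Col11a1* against 955, 0.173% of the parental level, with an exact Clopper-Pearson counting interval of 0.0209% to 0.6265% (edgeR adjusted p = 0.000344). In tumors its log2 ratio was -4.09 (SE 0.83, edgeR adjusted p = 0.00815), and the difference had edgeR adjusted p = 0.074. *Cdh11*, a cadherin of mesenchymal cells, was at 86.2, 91, 48.8, 82.7 and 46.6 CPM in parental tumors and 16.2, 32.5, 10.8, 10.65 and 14.1 CPM in GR KO tumors. In cells, *Cdh11* was at 3.09, 2.13 and 2.61 CPM in parental cells and 0, 0.0472 and 0 CPM in GR KO cells. GR KO cells held 1 count of *Cdh11* against 128, 0.645% of the parental level, with an exact Clopper-Pearson counting interval of 0.0162% to 3.66% (edgeR adjusted p = 7.37e-06). In tumors the groups were apart with a log2 ratio of -2.07 (SE 0.31, edgeR adjusted p = 0.0021), and the difference was called (edgeR adjusted p = 0.00376). Both *Col11a1* and *Cdh11* passed the filter through the parental cultures alone and so had to differ in cells.

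Vanished genes are called in cells and in the difference but not in tumors, with a tumor effect under 1.5-fold or of opposite sign. There were 264 (2.41% of genes tested), 18 higher and 246 lower in GR KO cells. The 246 lower genes had median levels of 7.80 CPM in parental and 0.934 CPM in GR KO cells, against 31.7 and 36.6 CPM in tumors, and 200 of them were higher in parental tumors than in parental cells. In 99 of the 246 all GR KO cultures were under 1 CPM, and 23 had no count there. A gene that passed the filter through the parental cultures alone had to differ, so these numbers lean on the filter. With at least 1 CPM asked in all 16 libraries, 102 genes vanished. Parental and GR KO groups did not overlap for all 264 genes in cells (33.5% of all genes) and for 4 in tumors (4.38%). Another 19 genes (0.173%), termed partly changed, had a called difference and a call in 1 setting, while the other setting kept an effect of the same sign above 1.5-fold that was not called: 18 were called lower in cells and 1 lower in tumors.

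*Igfbp5*, a secreted binder of insulin-like growth factors, had the smallest adjusted p for the difference among the named vanished genes, 1.3e-08 by edgeR. It was at 65.1, 92.5, 73.9, 81.2 and 55.1 CPM in parental tumors and 62.7, 66.2, 57.4, 109.6 and 68 CPM in GR KO tumors. In cells, *Igfbp5* was at 14.92, 11.1 and 13.9 CPM in parental cells and 0, 0 and 0 CPM in GR KO cells. Tumors of the genotypes overlapped around a log2 ratio of -0.0025 (SE 0.21, edgeR adjusted p = 0.995), while GR KO cells had no count and were at least 87.9-fold lower, measured against the floor (edgeR adjusted p = 3.2e-09). *Gpr97*, an adhesion G protein-coupled receptor, was at 0.441, 4.03, 1.65, 0.156 and 1.025 CPM in parental tumors and 3.2, 1.6, 0, 1.34 and 0 CPM in GR KO tumors. In cells, *Gpr97* was at 29.4, 29.9 and 27.85 CPM in parental cells and 0, 0 and 0 CPM in GR KO cells. All 3 parental cultures were alike and far above any tumor, and GR KO cells were at least 192-fold lower (edgeR adjusted p = 0.00102; difference edgeR adjusted p = 0.00296).

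*Slpi*, a secreted inhibitor of leukocyte proteases, was at 19.4, 18, 23.3, 10.05 and 38.76 CPM in parental tumors and 34.8, 52, 50.8, 13.8 and 34.6 CPM in GR KO tumors. In cells, *Slpi* was at 9.07, 4.02 and 5.8 CPM in parental cells and 0, 0 and 0 CPM in GR KO cells. Its tumor groups overlapped, and GR KO cells were at least 41.6-fold lower (edgeR adjusted p = 5.98e-06; difference edgeR adjusted p = 7.46e-06).

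The 18 vanished genes higher in GR KO cells had median levels of 9.54 CPM in parental and 29.7 CPM in GR KO cells, against 15.5 and 12.9 CPM in tumors. The 4 named here passed the filter through the GR KO cultures alone and so had to differ, and with at least 1 CPM in all 16 libraries 10 genes of this direction vanished. *Ptprd*, a receptor tyrosine phosphatase, was at 2.9, 2.86, 2.57, 1.51 and 1.81 CPM in parental tumors and 1.16, 2.84, 4.94, 1.8 and 3.01 CPM in GR KO tumors. In cells, *Ptprd* was at 0.193, 0 and 0.232 CPM in parental cells and 4.45, 5.95 and 6.33 CPM in GR KO cells. Tumors overlapped and cells did not. *Ptprd* had log2 ratios of 0.24 (SE 0.51, edgeR adjusted p = 0.789) in tumors and 5.23 (SE 0.84, edgeR adjusted p = 0.00038) in cells, and the difference was -4.98 (SE 0.96, edgeR adjusted p = 0.00262). *Fst*, which encodes follistatin, the secreted antagonist of activins, was at 2.77, 3.51, 5.68, 3.54 and 1.025 CPM in parental tumors and 0.582, 1.83, 2.33, 5.86 and 1.23 CPM in GR KO tumors. In cells, *Fst* was at 0.129, 0.183 and 0 CPM in parental cells and 1.02, 1.79 and 1.33 CPM in GR KO cells, on 5 counts in all parental cultures. *Fst* had log2 ratios of -0.44 (SE 0.63, edgeR adjusted p = 0.673) in tumors and 3.67 (SE 1.03, edgeR adjusted p = 0.0483) in cells, and the difference was -4.11 (SE 1.20, edgeR adjusted p = 0.0433).

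*Slc39a8*, a zinc importer, was at 3.09, 1.69, 1.99, 3.49 and 2.29 CPM in parental tumors and 2.76, 0.769, 0.534, 1.57 and 0.246 CPM in GR KO tumors. In cells, *Slc39a8* was at 0, 0.122 and 0 CPM in parental cells and 1.74, 1.37 and 1.435 CPM in GR KO cells. The parental cultures held 2 counts and the GR KO cultures 90, 37.2 times the parental level, with an exact Clopper-Pearson counting interval of 9.99 to 312 (edgeR adjusted p = 0.01; difference edgeR adjusted p = 0.00686). *Tmem246*, an enzyme that modifies glycosylphosphatidylinositol anchors, was at 1.01, 3.19, 1.02, 1.3 and 2.22 CPM in parental tumors and 1.96, 3.725, 2, 1.23 and 1.66 CPM in GR KO tumors. In cells, *Tmem246* was at 0, 0 and 0.116 CPM in parental cells and 1.94, 1.98 and 2.55 CPM in GR KO cells. On 2 parental and 128 GR KO counts this was 52.9 times the parental level, with an exact Clopper-Pearson counting interval of 14.3 to 441 (edgeR adjusted p = 0.00165; difference edgeR adjusted p = 0.00859). Tumor levels of both genes overlapped between genotypes.

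In vivo only genes are called in tumors and in the difference but not in cells, with a cell effect under 1.5-fold or of opposite sign. There were 269 (2.46% of genes tested), 224 higher and 45 lower in GR KO tumors. The 224 higher genes went from a median of 86.7 CPM in parental to 165 CPM in GR KO tumors and were at 86.4 and 59.9 CPM in cells. Their median log2 ratio in cells was −0.47, so the class name means not called in cells rather than unchanged there. Tumor groups did not overlap for 110 of the 269 genes (4.38% of all genes) and cell groups for 181 (33.5% of all genes). It held 38 genes without GR KO tumors 1 and 5, of which 32 were among the 269, and 1495 without GR KO tumor 4, with 797 higher and 698 lower (53.3% higher). Adding the log2 share of *Gm26924* as a covariate in tumors, chosen after the data were seen, left 54 genes, 51 of them among the 269.

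*Irf7*, the transcription factor that amplifies type I interferon production, led the higher genes. It was at 187, 97.8, 57.5, 113 and 56 CPM in parental tumors and 197, 385, 315, 305 and 246 CPM in GR KO tumors. In cells, *Irf7* was at 3.67, 3.29 and 3.83 CPM in parental cells and 1.48, 1.46 and 1.28 CPM in GR KO cells. GR KO tumors were above all parental tumors, while GR KO cells were below all parental cells. *Irf7* had log2 ratios of 1.51 (SE 0.27, edgeR adjusted p = 0.00601) in tumors and -1.35 (SE 0.41, edgeR adjusted p = 0.077) in cells, and the difference was 2.86 (SE 0.49, edgeR adjusted p = 0.000877). *Oasl2*, an interferon-induced relative of the oligoadenylate synthetases, was at 147, 96.6, 86.8, 147 and 83 CPM in parental tumors and 189, 283, 256.5, 287.5 and 198 CPM in GR KO tumors. In cells, *Oasl2* was at 1.93, 0.7925 and 2.44 CPM in parental cells and 1.07, 0.3775 and 0.319 CPM in GR KO cells, where the groups overlapped. *Oasl2* had log2 ratios of 1.13 (SE 0.27, edgeR adjusted p = 0.0152) in tumors and -1.54 (SE 0.46, edgeR adjusted p = 0.0748) in cells, and the difference was 2.66 (SE 0.53, edgeR adjusted p = 0.00364).

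*Pgf*, placental growth factor of the VEGF family, was at 16.25, 10.2, 17.6, 13.1 and 18.8 CPM in parental tumors and 50.85, 54.9, 28.15, 22 and 31.4 CPM in GR KO tumors. In cells, *Pgf* was at 1.415, 3.6 and 0.464 CPM in parental cells and 0.8695, 0.566 and 1.01 CPM in GR KO cells, with overlap. *Pgf* had log2 ratios of 1.31 (SE 0.36, edgeR adjusted p = 0.0306) in tumors and -1.16 (SE 0.54, edgeR adjusted p = 0.382) in cells, and the difference was 2.47 (SE 0.65, edgeR adjusted p = 0.027). *Parp10*, a mono-ADP-ribosyltransferase, was at 46.2, 28.9, 36.8, 34.7 and 25 CPM in parental tumors and 99.15, 87.75, 53.7, 53.4 and 69.3 CPM in GR KO tumors. In cells, *Parp10* was at 9.46, 13.35 and 7.31 CPM in parental cells and 5.42, 4.955 and 4.57 CPM in GR KO cells, the reverse order. *Parp10* had log2 ratios of 1.09 (SE 0.22, edgeR adjusted p = 0.00815) in tumors and -1.01 (SE 0.30, edgeR adjusted p = 0.0665) in cells, and the difference was 2.10 (SE 0.37, edgeR adjusted p = 0.00117). The tumor effects of *Pgf* and *Parp10* were 1.19 and 0.92 without GR KO tumors 1 and 5, with edgeR adjusted p of 0.144 and 0.0712 on fewer libraries.

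Genes lower in GR KO tumors only were led by *Tom1l1*, an adaptor of endosomal sorting, at 2.835, 2.11, 1.46, 3.02 and 2.12 CPM in parental tumors and 0.4365, 0.828, 0.734, 0.728 and 0 CPM in GR KO tumors. In cells, *Tom1l1* was at 2.12, 1.34 and 1.51 CPM in parental cells and 4.35, 6.61 and 3.4 CPM in GR KO cells, higher in GR KO without being called. *Tom1l1* had log2 ratios of -2.04 (SE 0.62, edgeR adjusted p = 0.0449) in tumors and 1.53 (SE 0.76, edgeR adjusted p = 0.436) in cells, and the difference was -3.57 (SE 0.99, edgeR adjusted p = 0.0351). Every GR KO tumor was under 1 CPM, so *Tom1l1* passed the filter through the parental tumors alone and had to differ in tumors. *Lama5*, a laminin chain of basement membranes, was at 6.74, 6.14, 20.5, 7.96 and 28.9 CPM in parental tumors and 0.218, 2.54, 4.87, 2.49 and 1.72 CPM in GR KO tumors. In cells, *Lama5* was at 5.4, 3.05 and 5.28 CPM in parental cells and 7.11, 10.7 and 4.625 CPM in GR KO cells, with overlap. *Lama5* had log2 ratios of -2.56 (SE 0.57, edgeR adjusted p = 0.0131) in tumors and 0.71 (SE 0.70, edgeR adjusted p = 0.771) in cells, and the difference was -3.26 (SE 0.91, edgeR adjusted p = 0.0364).

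*Id3*, an inhibitor of basic helix-loop-helix factors and a target of BMP and TGF-β signaling, was at 33.95, 58.1, 71.6, 40.3 and 108 CPM in parental tumors and 13.5, 18.9, 31.55, 17.1 and 25.1 CPM in GR KO tumors. In cells, *Id3* was at 109, 30.85 and 125 CPM in parental cells and 147, 227 and 81.6 CPM in GR KO cells, with wide ranges that overlapped. *Id3* had log2 ratios of -1.55 (SE 0.38, edgeR adjusted p = 0.0172) in tumors and 0.78 (SE 0.47, edgeR adjusted p = 0.573) in cells, and the difference was -2.33 (SE 0.61, edgeR adjusted p = 0.025). *Ano1*, a calcium-activated chloride channel, was at 27.65, 38.6, 32, 37.1 and 41.7 CPM in parental tumors and 3.64, 5.26, 13.6, 25 and 10.9 CPM in GR KO tumors. In cells, *Ano1* was at 49.9, 58.7 and 46.4 CPM in parental cells and 86.7, 92.4 and 66.8 CPM in GR KO cells, higher in every GR KO culture. *Ano1* had log2 ratios of -1.57 (SE 0.36, edgeR adjusted p = 0.0131) in tumors and 0.67 (SE 0.44, edgeR adjusted p = 0.625) in cells, and the difference was -2.24 (SE 0.57, edgeR adjusted p = 0.0225). When GR KO tumors 1 and 5 were left out, the tumor effects of *Tom1l1*, *Lama5*, *Id3* and *Ano1* were -1.59, -2.12, -1.49 and -1.27, with edgeR adjusted p of 0.0793, 0.0654, 0.109 and 0.076 on fewer libraries.

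**Figure D3:**
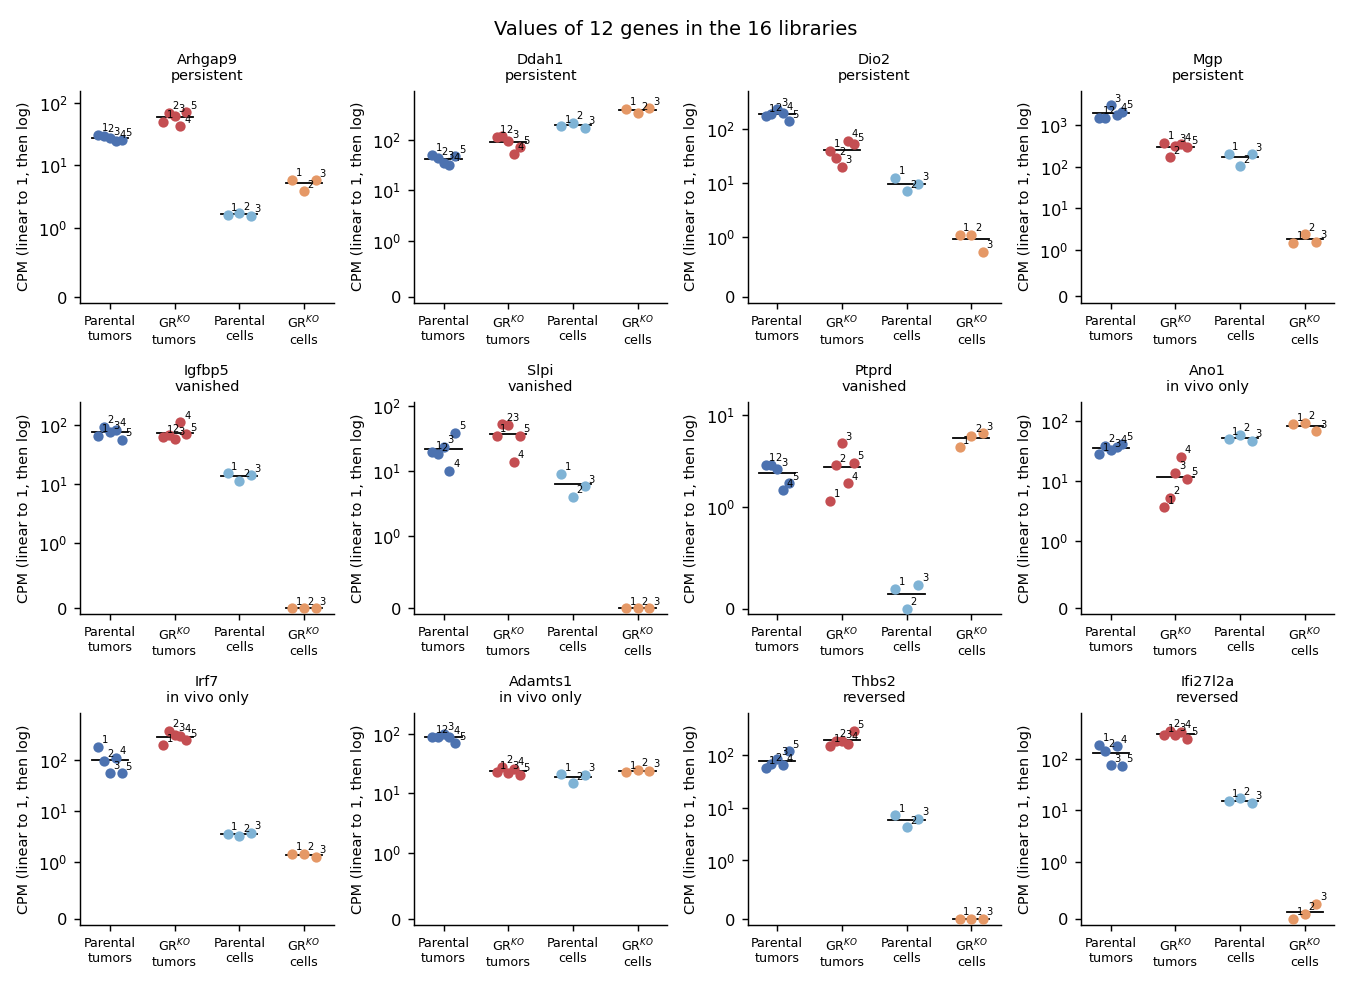
Levels (CPM, linear up to 1 and logarithmic above) of 12 genes in the 16 libraries, where points are libraries numbered by replicate and lines are group means. *Dio2* and *Mgp* are lower in GR KO in both settings, *Igfbp5* and *Slpi* have no count in GR KO cells yet overlap in tumors, and *Thbs2* and *Ifi27l2a* are higher in GR KO tumors and at or near 0 in GR KO cells.

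Reversed genes are called in both settings with opposite signs. There were 46 (0.420% of genes tested), all 46 lower in GR KO cells and higher in GR KO tumors, and the difference was called for all 46. Without GR KO tumor 4 there were 86, of which 7 were higher in cells. Their median level went from 48.9 to 112 CPM in tumors and from 15.4 to 2.06 CPM in cells. For 2 of the 46 the GR KO cells had no count. In 12 of the 46, among them the 4 described next, all GR KO cultures were under 1 CPM. These passed the filter through the parental cultures alone and so had to differ in cells. With at least 1 CPM asked in all 16 libraries, 22 genes reversed. The groups did not overlap for 27 genes in tumors (4.38% of all genes) and 46 in cells (33.5%). Without GR KO tumors 1 and 5 the class held 18 genes, and with the *Gm26924* covariate 25.

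*Thbs2*, a thrombospondin of the pericellular matrix, was at 58, 66.8, 84.9, 64.3 and 118 CPM in parental tumors and 149.9, 185, 184, 162 and 283 CPM in GR KO tumors. In cells, *Thbs2* was at 7.205, 4.27 and 6.09 CPM in parental cells and 0, 0 and 0 CPM in GR KO cells. Its tumor log2 ratio was 1.30 (SE 0.23, edgeR adjusted p = 0.00601), and GR KO cells were at least 38.65-fold lower (edgeR adjusted p = 7.24e-08; difference edgeR adjusted p = 3.22e-08). *Ifi27l2a*, an interferon-induced gene, was at 187, 143, 75.6, 177 and 73.9 CPM in parental tumors and 291, 354, 296, 341 and 249.5 CPM in GR KO tumors. In cells, *Ifi27l2a* was at 15.6, 17.1 and 13.9 CPM in parental cells and 0, 0.0944 and 0.266 CPM in GR KO cells. All 5 GR KO tumors were above the parental range and all 3 GR KO cultures far below it. *Ifi27l2a* had log2 ratios of 1.23 (SE 0.27, edgeR adjusted p = 0.0121) in tumors and -6.96 (SE 0.55, edgeR adjusted p = 5.4e-08) in cells, and the difference was 8.19 (SE 0.62, edgeR adjusted p = 3.22e-08).

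*Gpx3*, the secreted glutathione peroxidase, was at 199.9, 142, 169, 181 and 206.5 CPM in parental tumors and 332, 284, 239.5, 389 and 348 CPM in GR KO tumors. In cells, *Gpx3* was at 2.06, 1.1 and 1.45 CPM in parental cells and 0.05115, 0.0472 and 0 CPM in GR KO cells. GR KO cells held 2 counts of *Gpx3* against 75, 2.2% of the parental level, with an exact Clopper-Pearson counting interval of 0.262% to 8.24% (edgeR adjusted p = 9.98e-07; difference edgeR adjusted p = 3.96e-07). In tumors its log2 ratio was 0.84 (SE 0.18, edgeR adjusted p = 0.0122). *Gstm2*, a glutathione S-transferase, was at 13.7, 23.8, 17.8, 17.8 and 21.6 CPM in parental tumors and 54.85, 40.8, 35.1, 41.6 and 35.2 CPM in GR KO tumors. In cells, *Gstm2* was at 13.6, 23.6 and 16 CPM in parental cells and 0.409, 0.944 and 0.851 CPM in GR KO cells. No range overlapped. *Gstm2* had log2 ratios of 1.14 (SE 0.23, edgeR adjusted p = 0.00812) in tumors and -4.58 (SE 0.36, edgeR adjusted p = 4.97e-08) in cells, and the difference was 5.72 (SE 0.42, edgeR adjusted p = 3.22e-08). Without GR KO tumors 1 and 5, the tumor effects of *Gpx3* and *Gstm2* were 0.76 and 1.04, with edgeR adjusted p of 0.0793 and 0.0573 on fewer libraries.

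Most calls in a single setting did not reach a called difference. These undecided genes numbered 685 (6.25%): in tumors 422 were higher and 168 lower in GR KO, and in cells 30 were higher and 65 lower. For them neither persistence nor loss was shown. A called difference with no call in either setting was found for 154 genes (1.41%), 116 of them more positive in tumors. The remaining 9640 genes called in neither setting include those 154 and make up 88.0% of genes tested.

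Interferon-stimulated genes answer type I and type II interferons and encode antiviral effectors and signaling factors. Of 31 listed, 22 were tested: 9 were called in tumors, all higher in GR KO (6.39% over all genes), 7 were called in cells, all lower (3.64% over all genes), and 16 had a called difference, all more positive in tumors (6.05% over all genes). Their median effect was 0.84 in tumors and −1.41 in cells, against 0.01 and 0.02 over all genes tested, and the median difference was 2.11 against 0.02. *Ifit3*, *Rsad2*, *Usp18*, *Bst2* and *Igtp* reversed, *Rtp4* and *Gbp7* vanished, and *Oasl2*, *Irf7* and *Stat2* were in vivo only. Leaving out single libraries gave 9 to 17 called differences, all in that direction, with 5 to 12 called in tumors and 4 to 10 in cells, and DESeq2 gave 17, 15 and 14. Members that passed the filter only through the parental cultures weigh on these values: with at least 1 CPM asked in all 16 libraries, 13 were tested, 4 were called higher in tumors, 2 lower in cells and 5 in the difference, and the medians were 0.70 in tumors, −0.59 in cells and 1.37 for the difference. GR KO tumors also had higher summed leukocyte markers, and the part of leukocytes was not tested.

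*Rsad2*, the antiviral enzyme viperin, was at 185, 95.2, 60.9, 154 and 43.8 CPM in parental tumors and 302, 519, 221, 322 and 281 CPM in GR KO tumors. In cells, *Rsad2* was at 2.38, 4.39 and 2.84 CPM in parental cells and 0.205, 0.755 and 0.319 CPM in GR KO cells. The order of the genotypes turned between settings without overlap in either. *Rsad2* had log2 ratios of 1.62 (SE 0.34, edgeR adjusted p = 0.0107) in tumors and -2.87 (SE 0.60, edgeR adjusted p = 0.0048) in cells, and the difference was 4.49 (SE 0.69, edgeR adjusted p = 0.000246). *Usp18*, which removes ISG15 from proteins and dampens interferon signaling, was at 43.5, 18.2, 16.9, 31.7 and 15.1 CPM in parental tumors and 81.8, 121, 92.5, 75.1 and 54.15 CPM in GR KO tumors. In cells, *Usp18* was at 2.06, 2.62 and 1.57 CPM in parental cells and 0.205, 0 and 0.372 CPM in GR KO cells. *Usp18* had log2 ratios of 1.77 (SE 0.33, edgeR adjusted p = 0.00733) in tumors and -3.43 (SE 0.64, edgeR adjusted p = 0.00166) in cells, and the difference was 5.20 (SE 0.71, edgeR adjusted p = 7.36e-05). Both *Rsad2* and *Usp18* passed the filter through the parental cultures alone and so had to differ in cells. *Isg15* itself was at 44.2, 33.3, 35.1, 65.95 and 26.5 CPM in parental tumors and 37.9, 43.05, 65.4, 173 and 35.5 CPM in GR KO tumors, with GR KO tumor 4 highest, and its difference of 1.42 (SE 0.68, edgeR adjusted p = 0.194) was not called.

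*Ifit3*, an RNA-binding effector, had log2 ratios of 1.40 (SE 0.34, edgeR adjusted p = 0.0167) in tumors and -1.83 (SE 0.49, edgeR adjusted p = 0.0393) in cells, and the difference was 3.23 (SE 0.60, edgeR adjusted p = 0.00186). *Igtp*, an immunity-related GTPase, had log2 ratios of 1.17 (SE 0.24, edgeR adjusted p = 0.00882) in tumors and -1.92 (SE 0.39, edgeR adjusted p = 0.00384) in cells, and the difference was 3.09 (SE 0.46, edgeR adjusted p = 0.000174). *Bst2*, which encodes tetherin, a tether of budding virus particles, was at 249, 203, 145, 227 and 204 CPM in parental tumors and 347, 250.4, 222, 438 and 442.5 CPM in GR KO tumors. In cells, *Bst2* was at 16.2, 15 and 16.1 CPM in parental cells and 7.06, 5.9 and 5.635 CPM in GR KO cells. Its tumor groups overlapped through GR KO tumor 3. *Bst2* had log2 ratios of 0.74 (SE 0.20, edgeR adjusted p = 0.0282) in tumors and -1.35 (SE 0.27, edgeR adjusted p = 0.0036) in cells, and the difference was 2.08 (SE 0.34, edgeR adjusted p = 0.000434).

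Promoters are shown for these reversed genes because they moved together: the RefSeq table holds 4 of the 5, all but *Usp18*. Here the motif searched was the core of the interferon-stimulated response element. RefSeq promoters on build GRCm38.p6, from 250 bases before to 50 after the gene start, were read for GAAANNGAAA on both strands, which appears as TTTCNNTTTC on the opposite strand. The motif was in 1131 of all 32851 promoters (3.44%) and in 248 of the 8446 found for genes tested (2.94%). Among reversed genes it was in 9 of 30 promoters (30.0%), among vanished genes in 13 of 188 (6.91%), among in vivo only genes in 8 of 218 (3.67%) and among persistent genes in 0 of 20. Of interferon-stimulated genes with a called difference, 8 of 12 promoters held it (66.7%). *Rsad2*, *Ifit3*, *Igtp* and *Bst2* enter both this share and that of the reversed genes. No share was computed for listed interferon-stimulated genes without a called difference, so these shares cannot tell the listing from the call. A match describes letters in the sequence and is not a binding site. Each sequence runs 5′ to 3′ on the strand of its gene with the motif in capitals: *Rsad2* at chr12:26456403-26456702 on the minus strand, *Ifit3* at chr19:34583279-34583578 on the plus strand, *Igtp* at chr11:58199306-58199605 on the plus strand and *Bst2* at chr8:71537423-71537722 on the minus strand, where 2 matches overlap.
Rsad2: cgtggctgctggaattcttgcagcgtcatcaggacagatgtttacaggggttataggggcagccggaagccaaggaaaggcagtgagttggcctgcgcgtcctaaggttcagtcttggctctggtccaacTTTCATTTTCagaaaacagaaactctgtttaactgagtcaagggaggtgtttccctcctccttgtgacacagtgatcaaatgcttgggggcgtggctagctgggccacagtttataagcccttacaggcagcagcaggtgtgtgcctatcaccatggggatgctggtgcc
Ifit3: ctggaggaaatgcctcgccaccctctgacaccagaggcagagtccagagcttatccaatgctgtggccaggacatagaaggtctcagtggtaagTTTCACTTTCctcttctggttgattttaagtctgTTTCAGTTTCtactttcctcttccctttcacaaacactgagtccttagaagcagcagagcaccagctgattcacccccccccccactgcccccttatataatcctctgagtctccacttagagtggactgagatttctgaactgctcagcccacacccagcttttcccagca
Igtp: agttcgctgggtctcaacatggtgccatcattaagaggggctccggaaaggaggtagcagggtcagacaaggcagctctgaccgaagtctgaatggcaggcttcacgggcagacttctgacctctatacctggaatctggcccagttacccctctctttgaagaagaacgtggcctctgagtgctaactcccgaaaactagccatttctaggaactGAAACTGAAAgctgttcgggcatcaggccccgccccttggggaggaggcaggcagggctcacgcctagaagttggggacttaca
Bst2: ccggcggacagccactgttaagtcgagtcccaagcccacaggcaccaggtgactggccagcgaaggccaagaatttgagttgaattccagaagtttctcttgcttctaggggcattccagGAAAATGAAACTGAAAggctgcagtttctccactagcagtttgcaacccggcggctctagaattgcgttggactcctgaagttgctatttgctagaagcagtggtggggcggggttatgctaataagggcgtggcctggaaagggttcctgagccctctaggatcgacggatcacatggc

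Antigen presentation was read from its gene list. MHC class I genes load peptides cut by the proteasome onto the molecules that CD8 T cells read. Of 16 listed, 10 were tested: 2 were called higher in GR KO tumors (6.39% over all genes), 5 lower in GR KO cells (3.64%), and 6 had a called difference, all more positive in tumors (6.05%). Median effects were 0.07 in tumors and −1.31 in cells, with a median difference of 2.04. *H2-K1*, *Tap1*, *Psmb8* and *Nlrc5* vanished, *Tapbp* reversed, *Psmb10* was in vivo only, and *B2m* and *H2-D1* were not called. Leaving out single libraries gave 4 to 6 called differences, 1 to 2 calls in tumors and 3 to 5 in cells. With at least 1 CPM in all 16 libraries, 7 were tested, 2 were called in tumors, 3 in cells and 4 in the difference, and the medians were 0.04 in tumors, −0.70 in cells and 1.56 for the difference.

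*Nlrc5*, the transactivator of MHC class I genes, was at 28.8, 21.2, 19.5, 18.95 and 14.3 CPM in parental tumors and 8, 27.2, 21.3, 42.3 and 17.15 CPM in GR KO tumors. In cells, *Nlrc5* was at 1.74, 2.32 and 1.51 CPM in parental cells and 0, 0 and 0 CPM in GR KO cells, which puts GR KO cells at least 12.2-fold lower (edgeR adjusted p = 4.89e-05; difference edgeR adjusted p = 0.000115). *Nlrc5* passed the filter through the parental cultures alone and so had to differ in cells. *H2-K1*, a classical heavy chain, was at 3074, 1905, 2404, 4095 and 2401 CPM in parental tumors and 2566, 2017, 2077, 5261 and 2201 CPM in GR KO tumors. In cells, *H2-K1* was at 25, 11.7 and 26.2 CPM in parental cells and 4.09, 4.2 and 3.46 CPM in GR KO cells. Its tumor levels overlapped and were far above both culture groups. *H2-K1* had log2 ratios of 0.04 (SE 0.28, edgeR adjusted p = 0.943) in tumors and -2.42 (SE 0.40, edgeR adjusted p = 0.000539) in cells, and the difference was 2.46 (SE 0.49, edgeR adjusted p = 0.00323). *Tap1*, a chain of the peptide transporter, had log2 ratios of 0.57 (SE 0.24, edgeR adjusted p = 0.137) in tumors and -2.57 (SE 0.36, edgeR adjusted p = 6.53e-05) in cells, and the difference was 3.14 (SE 0.43, edgeR adjusted p = 6.94e-05). *Tapbp*, the peptide loading chaperone tapasin, was at 1778, 855, 1054, 826 and 914 CPM in parental tumors and 2652, 3052, 2321, 1317 and 1618 CPM in GR KO tumors. In cells, *Tapbp* was at 324, 557 and 289 CPM in parental cells and 127, 78.4 and 107 CPM in GR KO cells. *Tapbp* had log2 ratios of 1.02 (SE 0.27, edgeR adjusted p = 0.0234) in tumors and -1.91 (SE 0.35, edgeR adjusted p = 0.00159) in cells, and the difference was 2.93 (SE 0.44, edgeR adjusted p = 0.000205).

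Matrix genes had most of their calls in cells. Of 24 listed, 23 were tested: 3 were called lower in GR KO tumors (2.17% over all genes), 9 lower (3.64%) and 1 higher (0.511%) in GR KO cells, and the difference was called more positive in tumors for 8 (6.05%) and more negative for 1 (0.931%). Median effects were −0.03 in tumors and −0.67 in cells, and −0.08 and −0.57 over the 22 with at least 1 CPM in all 16 libraries. Without GR KO tumors 1 and 5 the tumor calls were lost and those in cells stayed at 9 lower and 1 higher. *Col1a1*, *Col5a1*, *Col6a1*, *Col6a2*, *Col12a1*, *Col18a1* and *Lama4* vanished, *Col6a3* was partly changed, *Col3a1* persisted and *Col5a2* was lower in tumors only. *Col1a1*, the main chain of type I collagen, was at 1889, 2102, 2139, 2042 and 2152 CPM in parental tumors and 1747, 1823, 1778, 2519 and 2056 CPM in GR KO tumors. In cells, *Col1a1* was at 45.4, 25.85 and 27.4 CPM in parental cells and 1.59, 2.265 and 1.12 CPM in GR KO cells. Tumors held more than any culture and overlapped between genotypes. *Col1a1* had log2 ratios of -0.05 (SE 0.19, edgeR adjusted p = 0.896) in tumors and -4.30 (SE 0.29, edgeR adjusted p = 6.43e-09) in cells, and the difference was 4.25 (SE 0.34, edgeR adjusted p = 7.09e-08). *Col3a1*, the type III collagen chain, was at 2530, 3167, 2875, 2971 and 2551 CPM in parental tumors and 1094, 1111, 1414, 2028 and 1658 CPM in GR KO tumors. In cells, *Col3a1* was at 227, 139 and 206 CPM in parental cells and 75.2, 78.3 and 66.5 CPM in GR KO cells. It was lower in every GR KO library. *Col3a1* had log2 ratios of -0.94 (SE 0.19, edgeR adjusted p = 0.00815) in tumors and -1.38 (SE 0.25, edgeR adjusted p = 0.00125) in cells, and the difference was 0.44 (SE 0.31, edgeR adjusted p = 0.372). Fibroblasts are a known source of these collagens, and their part in the tumor levels was not tested.

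Genes of sterol and fatty acid synthesis, most of them targets of the SREBP factors, had calls in both settings. Of 22 listed, 21 were tested: 2 were called higher (6.39% over all genes) and 1 lower (2.17%) in GR KO tumors, 5 lower in GR KO cells (3.64%), and 9 had a called difference, all more positive in tumors (6.05%). Median effects were 0.25 in tumors and −0.73 in cells, with a median difference of 1.00. *Hmgcs1*, *Sqle*, *Dhcr7* and *Mvd* vanished, *Fdft1* was in vivo only, and *Cyp51*, *Sc4mol* and *Mvk* had the difference alone. *Hmgcs1*, an early enzyme of the mevalonate pathway, was at 74.3, 93.5, 87.2, 79.95 and 111.5 CPM in parental tumors and 104.5, 99.8, 118, 109 and 97.2 CPM in GR KO tumors. In cells, *Hmgcs1* was at 277, 246 and 265 CPM in parental cells and 136, 152 and 143 CPM in GR KO cells. *Hmgcs1* had log2 ratios of 0.25 (SE 0.14, edgeR adjusted p = 0.263) in tumors and -0.87 (SE 0.18, edgeR adjusted p = 0.00532) in cells, and the difference was 1.12 (SE 0.23, edgeR adjusted p = 0.00462). Leaving out single libraries gave 3 to 15 called differences in this list, and without GR KO tumors 1 and 5 there were 4, with the tumor calls lost.

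Direct GR targets were checked next, in cells and tumors that received no GC cream. Of 16 listed, 15 were tested: 2 were called higher (6.39% over all genes) and 2 lower (2.17%) in GR KO tumors, 1 higher in GR KO cells (0.511%), and the difference was called more positive in tumors for 1 (6.05%) and more negative for 2 (0.931%), the latter 1 to 5 when single libraries were left out. The 2 higher in tumors were lost without parental tumor 3 or 4 or GR KO tumor 2. The call in cells was lost when any single culture was left out, and without parental tumor 1, 3 or 4 or GR KO tumor 2. It was also lost with the replicate block and with at least 1 CPM in all 16 libraries. The more positive difference was lost without parental culture 1 or 3 or GR KO culture 2. Without GR KO tumors 1 and 5 the tumor calls were 1 higher and 1 lower. *Fkbp5*, a cochaperone of steroid receptors, was at 65.6, 53.6, 70.85, 70.9 and 79.1 CPM in parental tumors and 14.1, 17.4, 32.7, 35.6 and 25 CPM in GR KO tumors. In cells, *Fkbp5* was at 46.5, 16.6 and 36.8 CPM in parental cells and 33.6, 46.2 and 27.3 CPM in GR KO cells. GR KO tumors were below all parental tumors, and cells overlapped. *Fkbp5* had log2 ratios of -1.43 (SE 0.28, edgeR adjusted p = 0.00756) in tumors and 0.10 (SE 0.35, edgeR adjusted p = 0.952) in cells, and the difference was -1.53 (SE 0.45, edgeR adjusted p = 0.0455). *Adamts1*, a secreted protease, was at 88.5, 88.7, 100.5, 87 and 69.1 CPM in parental tumors and 22.55, 27.7, 22.1, 25.7 and 20.5 CPM in GR KO tumors. In cells, *Adamts1* was at 20.9, 14.75 and 20.5 CPM in parental cells and 22.7, 24.9 and 23.7 CPM in GR KO cells. Parental tumors stood apart above the other 3 groups, whose ranges lay close together. *Adamts1* had log2 ratios of -1.86 (SE 0.17, edgeR adjusted p = 7.38e-06) in tumors and 0.34 (SE 0.21, edgeR adjusted p = 0.579) in cells, and the difference was -2.20 (SE 0.27, edgeR adjusted p = 1.68e-05).

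*Angptl4*, an inhibitor of lipoprotein lipase, was at 32.8, 37, 30.1, 32 and 27.9 CPM in parental tumors and 42.1, 59.25, 59.9, 54.5 and 40.3 CPM in GR KO tumors. In cells, *Angptl4* was at 15.8, 12.4 and 19.7 CPM in parental cells and 11.9, 10.5 and 11.4 CPM in GR KO cells. *Angptl4* had log2 ratios of 0.69 (SE 0.18, edgeR adjusted p = 0.0226) in tumors and -0.51 (SE 0.23, edgeR adjusted p = 0.372) in cells, and the difference was 1.20 (SE 0.29, edgeR adjusted p = 0.0185). *Mt1* and *Mt2* encode metallothioneins and were undecided. *Mt1* was called higher in GR KO tumors with a log2 ratio of 0.61 (SE 0.17, edgeR adjusted p = 0.0291). *Mt2* was called higher in GR KO cells with 0.74 (SE 0.20, edgeR adjusted p = 0.0393), a call lost when any single culture was left out. The list's median effect was −0.14 in tumors and 0.18 in cells.

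TGF-β genes were called in either direction. Of 29 listed, 27 were tested: 2 were called higher (6.39% over all genes) and 3 lower (2.17%) in GR KO tumors, 2 lower in GR KO cells (3.64%), and the difference was called more positive in tumors for 3 (6.05%) and more negative for 1 (0.931%). Without GR KO tumor 4 there were 4 higher and 6 lower in tumors, and the difference was more positive for 4 and more negative for 6, while without GR KO tumors 1 and 5 the tumor calls were lost. *Lrrc32*, which encodes GARP, the surface anchor of latent TGF-β, was at 68, 53.1, 66.2, 38 and 65.6 CPM in parental tumors and 45.5, 67.9, 92.05, 59.3 and 45.5 CPM in GR KO tumors. In cells, *Lrrc32* was at 23.9, 13.8 and 18.7 CPM in parental cells and 3.48, 1.085 and 2.87 CPM in GR KO cells. Tumors overlapped, and every GR KO culture was below every parental culture. *Lrrc32* had log2 ratios of 0.10 (SE 0.26, edgeR adjusted p = 0.83) in tumors and -2.93 (SE 0.38, edgeR adjusted p = 3.47e-05) in cells, and the difference was 3.03 (SE 0.46, edgeR adjusted p = 0.000228). *Smad2*, a signal transducer of the pathway, was in vivo only, with log2 ratios of 0.78 (SE 0.21, edgeR adjusted p = 0.0249) in tumors and -0.35 (SE 0.26, edgeR adjusted p = 0.683) in cells, and the difference was 1.13 (SE 0.34, edgeR adjusted p = 0.0482). The list's median difference was −0.03 and changed sign to 0.0036 with DESeq2 size factors.

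**Figure D4:**
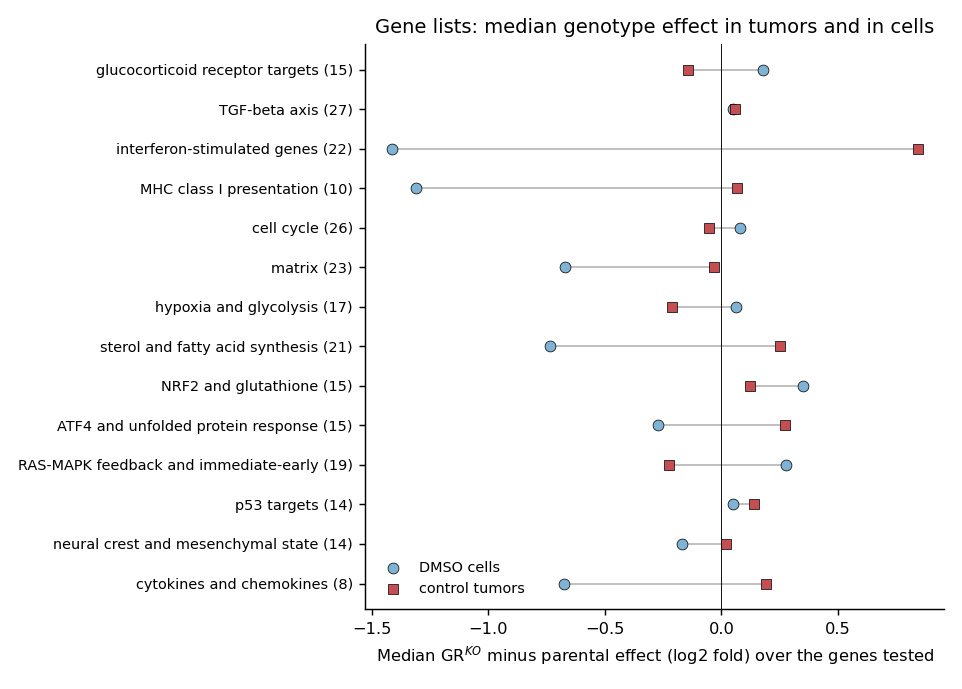
Median log2 ratio of GR KO to parental for 14 gene lists, where circles are cells (with genes at 0 set to the floor bound) and squares are tumors. Interferon-stimulated genes have medians of −1.41 in cells and 0.84 in tumors, and MHC class I genes −1.31 and 0.07, against 0.02 and 0.01 over all genes tested.

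The other lists are read against 8.56% of all genes called in tumors, 4.15% in cells and 6.98% in the difference. Of 26 cell cycle genes, 2 were called higher and 1 lower in GR KO tumors, with *Mcm5* more positive and *Mcm4* more negative in tumors. Of 17 hypoxia and glycolysis genes, 2 were called higher and 2 lower in tumors and 2 lower in cells, and *Pfkp*, a phosphofructokinase, reversed, with log2 ratios of 0.59 (SE 0.16, edgeR adjusted p = 0.0303) in tumors and -1.01 (SE 0.21, edgeR adjusted p = 0.00532) in cells, and the difference was 1.61 (SE 0.27, edgeR adjusted p = 0.000656). Of 14 p53 targets, 2 were called higher in tumors, and *Cdkn1a*, the cell cycle inhibitor p21, was in vivo only, with log2 ratios of 1.09 (SE 0.16, edgeR adjusted p = 0.0021) in tumors and -0.03 (SE 0.20, edgeR adjusted p = 0.981) in cells, and the difference was 1.12 (SE 0.26, edgeR adjusted p = 0.0119). Of 15 ATF4 and unfolded protein response genes, 2 were called higher in tumors and 1 lower in cells, and *Ddit3* and *Atf4* were in vivo only. Of 19 RAS-MAPK feedback genes, 2 were called higher and 2 lower in tumors, and *Etv5* was more positive and *Phlda1* more negative in tumors, with differences of 1.75 (SE 0.40, edgeR adjusted p = 0.0107) and -1.68 (SE 0.37, edgeR adjusted p = 0.00892). Of 15 NRF2 and glutathione genes, 2 were called higher in GR KO tumors, *Pgd* and *Taldo1* of the pentose phosphate pathway, both undecided. Without GR KO tumor 4 the tumor calls were 2 higher and 4 lower for cell cycle genes, 3 and 6 for hypoxia and glycolysis, 3 and 2 for p53 targets, 4 and 2 for ATF4 and unfolded protein response, and 3 and 5 for RAS-MAPK feedback. Other tumors moved them the other way: the cell cycle calls in tumors were lost without GR KO tumor 1, 2 or 5 or parental tumor 3 or 5. Hypoxia and glycolysis fell to 1 higher and 1 lower without GR KO tumor 1 or 2. They fell to 1 and 0 without parental tumor 3 or 5, and to 2 and 0 without parental tumor 4. Both lists lost their tumor calls without GR KO tumors 1 and 5.

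Of 14 neural crest and mesenchymal genes, *Sox9* and *Tfap2a*, transcription factors of the neural crest, vanished and were the 2 called in cells. *Tfap2a*, with no count in GR KO cells, passed the filter through the parental cultures and so had to differ, and with at least 1 CPM in all 16 libraries 1 member was called in cells. Of 21 cytokines and chemokines, 8 were tested, 1 was called lower in tumors and 2 lower in cells, and *Ccl5* and *Il33* vanished. Both passed the filter through the parental cultures alone and so had to differ, and with at least 1 CPM in all 16 libraries 3 members were left and these calls were lost.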

How the data were processed

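The authors prepared 3′ mRNA libraries (QuantSeq FWD), trimmed reads with Trim Galore, aligned them to GRCm38 with STAR and made gene counts with featureCounts on Ensembl release 75, and the values used are the deposited integer counts per gene, with no column left aside. The strand setting of featureCounts is not stated, so levels of overlapping antisense genes are uncertain. Groups followed the labels. The members and the gene lists were chosen with earlier results of these data known. Symbols and positions came from GENCODE M21, where 37607 of 39179 identifiers matched and 176 symbols were shared.

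Genes with at least 1 CPM in 3 or more tumors and 3 or more cultures were normalized by TMM and fitted in R 4.3.3 with edgeR 4.0.16 (glmQLFit and glmQLFTest, 4 groups, 12 residual degrees of freedom, Benjamini-Hochberg adjustment over all 10955 genes). Library totals ran from 15121571 to 26386770 counts, and the floor was 3 counts per library. Counting intervals are exact Clopper-Pearson intervals at 95%. Same-numbered libraries share a number and, in cultures, a letter of the library name; all 6 cultures carry the same date there, no label says what number or letter stands for, and no replicate term entered the fit. *Nr3c1* was tested by exact two-sided permutation of log2(CPM + 1).

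The named genes were *Nr3c1* and, per class and direction, the 4 with the largest effects whose genotype groups did not overlap in the setting of the call, excluding clone-name symbols; 1 vanished gene that this selects is not described. Persistent genes were ranked by the smaller of the 2 absolute effects and the others by the absolute difference. List members were named where the difference was called, or as up to 3 others per list by mean CPM; those of the list members that the text describes were picked after their values were seen. Alternatives were DESeq2 1.42.0, its size factors, TMM per setting, other filters and folds, all 31 libraries, limma 3.58.1 voom with group weights, a replicate block, each library left out, and, chosen after the data were seen, a *Gm26924* covariate, the loss of GR KO tumors 1 and 5, and leaving out each library with the genes kept.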

Additional observations from a re-analysis of the deposited data

Results flagged for a closer look

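Among 90 groups of 5 tumors looked at, 7 had a library whose gap to its neighbor passed Dixon's 95% critical value, and chance marks about 1 in 20 groups. Parental tumor 5 had the highest neutrophil marker sum of its group, 1171 CPM, and the highest keratinocyte sum, 3403 CPM. Parental tumor 1 had the highest *Gm26924* share among the parental tumors, 5.554%. Among GR KO tumors, *Eya1* reached 45.76 CPM in tumor 1, *Cdh11* 32.46 CPM in tumor 2, *Igfbp5* 109.6 CPM in tumor 4 and *Thbs2* 283.2 CPM in tumor 5.

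The genotype effect differed between tumors and cells for 765 genes by the edgeR test of the difference itself. Among the named genes, the adjusted p was 1.3e-08 for *Igfbp5*, 3.22e-08 for each of *Thbs2*, *Ifi27l2a* and *Gstm2*, 3.96e-07 for *Gpx3*, 7.46e-06 for *Slpi* and 9.18e-06 for *Mgp*. It was 0.000877 for *Irf7*, 0.00117 for *Parp10*, 0.00262 for *Ptprd*, 0.00296 for *Gpr97*, 0.00364 for *Oasl2*, 0.00376 for *Cdh11*, 0.00686 for *Slc39a8* and 0.00859 for *Tmem246*. It was 0.0225 for *Ano1*, 0.025 for *Id3*, 0.027 for *Pgf*, 0.0351 for *Tom1l1*, 0.0364 for *Lama5* and 0.0433 for *Fst*. The named genes were picked by the size of these effects, so their adjusted p describe the choice. *Igfbp5*, *Thbs2*, *Ifi27l2a*, *Gstm2*, *Gpx3*, *Slpi*, *Gpr97* and *Cdh11* also passed the filter through the parental cultures alone. *Ptprd*, *Slc39a8*, *Tmem246* and *Fst* passed it through the GR KO cultures alone, and *Tom1l1* through the parental tumors alone. Each of these had to differ in that setting.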

How the results depend on the processing

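Scaling, weaker filters, no minimum fold and all 31 libraries kept the total of each call and class within 1.5 times its reported value. Counts by direction moved more: with all 31 libraries 166 differences were more negative, 31 vanished genes were higher and 68 in vivo only genes lower, and with no filter 145 in vivo only genes were higher. The next choices moved totals further, and the cause was not tested except where fewer genes or libraries enter. DESeq2 called the difference for 1348 genes, with 84 reversed and 557 in vivo only. Asking at least 1 CPM in all 16 libraries leaves 8755 genes and so drops those silent in GR KO cells, which gave 444 for the difference, 198 in cells, 15 persistent, 22 reversed and 102 vanished. A minimum fold of 2 gave 300 in tumors, 20 persistent, 25 reversed, 78 in vivo only and 261 undecided. limma voom with weights per group gave 1370 for the difference, 316 in tumors, 1162 in cells, 554 vanished and 165 in vivo only. Each setting fitted alone gave 217 in tumors and 847 in cells, and the classes were not recounted there.

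Some alternatives were chosen after seeing the data. With the *Gm26924* covariate, 204 genes were called in tumors (193 of them among the 938), 25 reversed, 54 were in vivo only and 281 undecided. Without GR KO tumors 1 and 5 there were fewer samples, and 122 were called in tumors, 13 persistent, 18 reversed, 38 in vivo only and 213 undecided.

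Same-numbered libraries were not shown to be paired: 4 of 5 pairs of parental and GR KO tumors had a residual correlation over 0.1, from −0.114 to 0.254, the 3 pairs of cultures were all negative, from −0.407 to −0.0419, and 2 of 8 parental libraries correlated best with their own number. With a replicate block the difference was called for 625 genes, with 827 in tumors and 414 in cells, 30 persistent, 39 reversed, 236 vanished, 220 in vivo only and 630 undecided, all within 1.5 times the reported counts.

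Leaving out each library in turn, with the filter applied again, gave 214 to 2371 genes for the difference, 389 to 2547 in tumors, 187 to 524 in cells, 17 to 55 persistent, 20 to 86 reversed, 99 to 307 vanished, 70 to 1495 in vivo only and 346 to 966 undecided. With the genes of the full set kept, the ranges were 347 to 2378 for the difference, 391 to 2552 in tumors, 339 to 524 in cells, 18 to 55 persistent, 24 to 86 reversed, 202 to 307 vanished, 73 to 1499 in vivo only and 349 to 967 undecided. Without a parental culture the filter removes genes silent in GR KO cells.

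The libraries that moved a count by over 1.5 times were these, with the filter applied again. For the difference, the count was 2371 without GR KO tumor 4, 288, 214 and 387 without parental cultures 1, 2 and 3, and 387 and 342 without GR KO cultures 1 and 2. In tumors it was 507 and 466 without parental tumors 3 and 4, and 389, 409 and 2547 without GR KO tumors 1, 2 and 4. In cells it was 208, 187 and 216 without parental cultures 1, 2 and 3. The persistent count was 18 and 21 without parental tumors 3 and 5, 55 without GR KO tumor 4, and 17 without each parental culture. The reversed count was 24, 28 and 29 without parental tumors 3, 4 and 5, 26 and 86 without GR KO tumors 2 and 4, and 20, 23 and 26 without parental cultures 1, 2 and 3. The vanished count was 116, 99 and 125 without parental cultures 1, 2 and 3. The in vivo only count was 127, 121 and 174 without parental tumors 3, 4 and 5, 112, 106 and 1495 without GR KO tumors 1, 2 and 4, 104, 70 and 146 without parental cultures 1, 2 and 3, and 95 and 73 without GR KO cultures 1 and 2. The undecided count was 437 and 400 without parental tumors 3 and 4, and 346 and 372 without GR KO tumors 1 and 2. With the genes of the full set kept, the count in tumors was 625 without parental tumor 5.

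No effect of a named gene changed sign in a call. Of the 826 named effects refitted with a library left out, 77 lost their call, and of 598 under the other settings 46 did. Effects of genes that failed the filter in a refit are in neither total and are not counted as lost. In the class counts that follow, such genes count as not kept. Of the 28 genes named by class, 24 kept their class with DESeq2, 19 with voom, 8 with at least 1 CPM in all 16 libraries and 18 without GR KO tumors 1 and 5. Without parental cultures 1, 2 and 3 it was 7, 9 and 11, and 22, 20 and 21 with the genes of the full set kept; without a GR KO culture 16 to 20, and without a tumor 22 to 26. Depth limits the low end: floors of 0.1416 to 0.1595 CPM in the 3 GR KO cultures bound every fold against them where they are silent. Tumors and cultures also differ in cell mixture, growth and handling, which cannot be told apart from one another.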

Other observations

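Genes of chromosome 15 had a called difference in 69 of 417 cases (16.5%), against 6.98% over all genes tested. Their median effect was −0.34 in cells and 0.10 in tumors, and the median difference was 0.43, against 0.02 over all genes. *Parp10*, named above, lies on this chromosome. In tumors 12.7% of its genes were called, below the 13.4% of chromosome 19, and in cells 7.19%. Chromosome 16 had the lowest share called in tumors among chromosomes with over 100 genes tested, 3.65%, and 5.34% for the difference.

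Base composition at the 3′ end moved with the effects. Over 10877 genes with a known 3′ end of 500 bases, GC content correlated with the tumor effect at Pearson r 0.276 and Spearman rho 0.298, with the cell effect at −0.163 and −0.268, and with the difference at 0.270 and 0.347. These are correlations across genes, which are not independent replicates. Median GC content was 51.6% in the in vivo only genes higher in GR KO tumors, 36.7% in those lower, and 44% over all genes tested.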
